A study of Caenorhabditis elegans with 6 samples.

Results

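The genes described here belong to families of antimicrobial effectors that *C. elegans* makes largely in its intestine: lysozymes, saposin-like proteins, thaumatin-like proteins and antibacterial factors. Members were taken by name, as every gene on the array whose symbol was *lys*, *ilys*, *spp*, *abf* or *thn* with a number. A name does not show that a member has antimicrobial activity, and 3 members are annotated as pseudogenes. This gave 56 genes of the 24733 on the array, carried by 75 probes. There were 16 lysozyme genes (10 *lys* and 6 *ilys*), 26 saposin-like *spp* genes, 8 thaumatin-like *thn* genes and 6 *abf* genes. No probe was matched to 4 further annotated members, *spp-26*, *spp-27*, *spp-29* and *spp-30*, which were not analysed here.

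RNA came from the whole bodies of wild-type Bristol N2 hermaphrodites raised at 20°C on UV-irradiated *Escherichia coli* OP50. The 3 control samples received no fraction, and the 3 pRJ-Fr.5 samples received fraction 5 of protease-treated royal jelly for 24 h from the L4 larval stage. The labels give its concentration as 25 mg/ml, whereas the methods of the study give micrograms. Each sample was a large pool of worms hybridised to 1 one-color Agilent array, and nothing in the labels says whether the replicates were separate cultures, so that the p-values measure the spread between these samples, which may be technical. In whole-worm RNA, fewer cells of a type and less RNA per cell cannot be told apart.

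Worms eat bacteria, and these proteins act on what reaches the gut lumen. Lysozymes cut the peptidoglycan of bacterial walls; the *lys* genes resemble lysozymes of protists and the *ilys* genes those of other invertebrates. Saposin-like proteins, called caenopores in *C. elegans*, insert into bacterial membranes and form pores. Thaumatin-like proteins resemble the pathogenesis-related proteins of plants, and the *abf* genes encode small cysteine-rich peptides related to the antibacterial factor of *Ascaris*. Several of these genes respond to infection through the p38 kinase, TGF-beta and insulin/IGF-1 pathways, and *lys-7*, *lys-8* and *spp-1* are known for being induced when insulin/IGF-1 signaling is reduced.

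The arrays held 43603 non-control probes, and between 32814 and 34548 of them lay well above background on 5 of the arrays. Control replicate 3 stood apart with 27725, with 207 outlier spots against 5 to 9 elsewhere, and with a negative control SD of 5.42 intensity units against 1.23 to 1.67. A probe was kept when it was well above background on all 6 arrays, and 4704 probes were lost through control replicate 3 alone. The arrays lay on 2 slides: slide 1 held replicates 1 and 2 of both groups, and slide 2 held replicate 3 of both. Values are the signal on the log2 scale relative to the 75th percentile of the array, so that 0 is that percentile and a difference of 1 is a doubling. They are not compared between genes, since each probe has its own brightness.

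Of the 56 members, 34 had a kept probe and were tested. With limma and Benjamini-Hochberg adjustment over all 16047 genes tested (threshold 0.05), 8 of the 34 changed, or 23.5%. The share over all genes tested was 29.0%. Higher with pRJ-Fr.5 were 5 members, *ilys-3*, *thn-1*, *thn-2*, *spp-1* and *spp-18*, and lower were 3, *spp-13*, *spp-7* and *spp-23*. Among all genes, 9.88% were higher and 19.1% were lower. A limma unadjusted p under 0.05 was found for 16 members, against 43.2% of all genes. The 2 groups did not overlap in 17 members, 8 higher and 9 lower, where 48.9% of all genes did not overlap. Taken by probe, 5 of the 50 kept member probes were higher and 6 lower, or 22.0%, beside 24.3% of all kept probes.

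The largest changes were in a few members. In 4 of the 34 it was at least 2-fold, in *ilys-3*, *thn-1* and *thn-2* upwards and in *spp-13* downwards, while 1.81% of all genes tested changed by that much in either direction. Ranked by increase among the 16047 genes, *ilys-3* stood at place 5, *thn-1* at 23 and *thn-2* at 41. The median log2 fold change over the members was -0.06, beside 0.03 over all genes, and the middle of all genes (25th to 75th percentile) ran from -0.22 to 0.17.

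**Figure D1:**
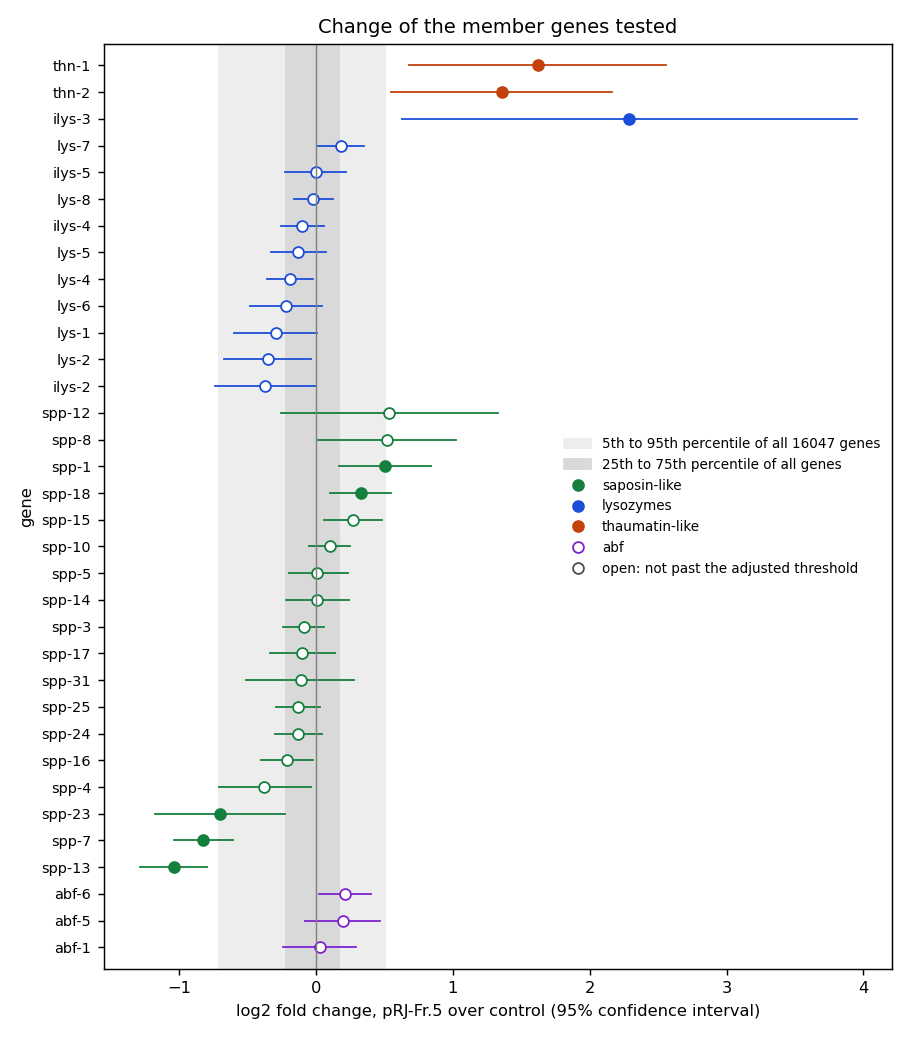
Log2 fold change (pRJ-Fr.5 over control, x axis) of the 34 member genes tested, by family, with 95% confidence intervals from limma; filled points passed the adjusted threshold. *ilys-3*, *thn-1* and *thn-2* lie far beyond the 95th percentile of all 16047 genes (0.50) and *spp-13* and *spp-7* below the 5th (-0.71), while most other members lie near 0.

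The families were then taken apart. Over all genes tested 29.0% passed, 9.88% higher and 19.1% lower. Both thaumatin-like genes tested rose, with a median log2 fold change of 1.49. Among the 11 lysozymes tested, 1 rose (9.09%), none fell and 10 did not pass, with a median of -0.13. Among the 18 saposin-like genes, 2 rose, 3 fell and 13 did not pass, with a median of -0.10. The share that passed, 27.8%, was near that over all genes. None of the 3 *abf* genes tested passed, and their median was 0.20. These medians describe families of very unequal size, and the difference between families was not tested.

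*thn-1* and *thn-2* were the only thaumatin-like genes that could be tested. *thn-1* read 0.41, 0.28 and -0.24 in control replicates 1 to 3, and 0.84, 2.19 and 2.29 in pRJ-Fr.5 replicates 1 to 3. All treated samples lay above all controls, but replicate 1 rose much less than the other pair. The log2 fold change was 1.62 ± 0.40 (SE, n = 3 per group), a 3.08-fold increase, with a limma adjusted p of 0.0237.

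In *thn-2* the same samples were high and low. Its controls read 2.96, 2.78 and 2.54, and its treated samples read 3.29, 4.41 and 4.65. The groups again did not overlap, and pRJ-Fr.5 replicate 1 was again the lowest treated sample. The increase was 2.56-fold, a log2 fold change of 1.36 ± 0.34 (SE, n = 3 per group, limma adjusted p = 0.0257). With the slide as a block the limma adjusted p was 0.0383 for *thn-1* and 0.0375 for *thn-2*. The differences on slide 1 and slide 2 were 1.17 and 2.53 for *thn-1* and 0.98 and 2.10 for *thn-2*.

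The gene *thn-1* has a pair of kept probes, and both passed limma's threshold in the fit over all probes, with log2 fold changes of 1.57 (adjusted p = 0.0284) and 1.68 (adjusted p = 0.0219). In the RefSeq annotation of WBcel235, *thn-8*, *thn-1*, *thn-3* and *thn-2* stand in that order with no other protein-coding gene between them. *thn-3* and *thn-8* are annotated there as pseudogenes, as is *thn-7*. Whether the *thn-1* and *thn-2* probes also bind RNA of the other was not tested, since no probe sequences were used here.

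The other thaumatin-like genes could not be tested. *thn-3*, *thn-4* and *thn-5* were well above background on some arrays only, and *thn-6* and *thn-7* on none. All but 1 of their readings lay between -10.19 and -5.84. A single reading of *thn-4* was far above its others, -3.55 on control replicate 3 against -9.75 to -8.54 elsewhere. *thn-8* had a probe well above background on all 3 treated arrays and 2 of 3 control arrays. That probe read -7.21, -7.29 and -5.83 in controls and -7.01, -5.74 and -6.67 with pRJ-Fr.5, which overlap. The means differed by 0.30 on the log2 scale. Another probe of *thn-8* was well above background on 2 of 3 arrays in each group, and its means differed by 0.39.

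**Figure D2:**
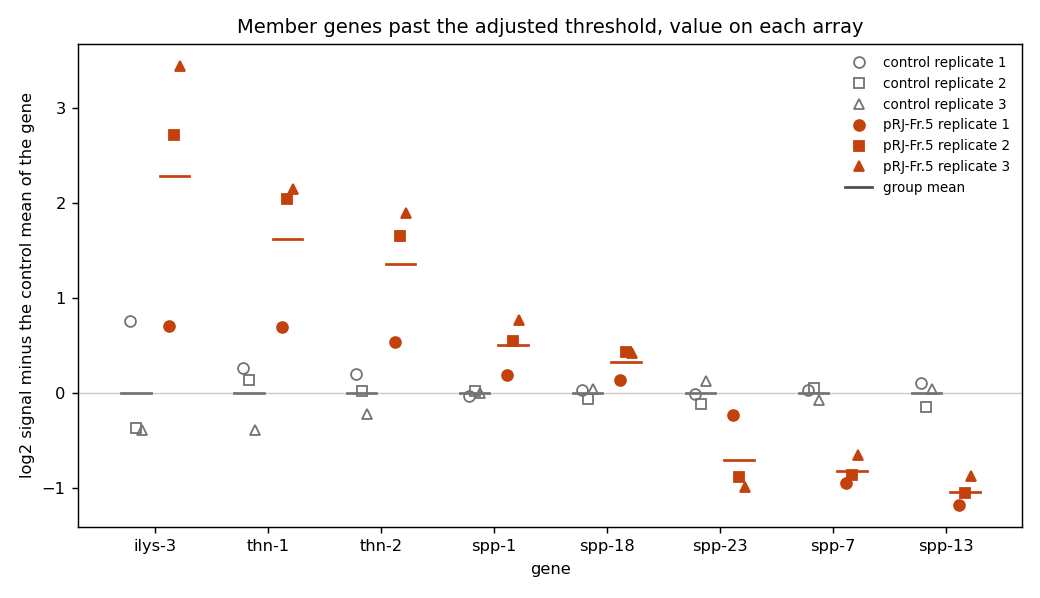
Signal of each of the 8 member genes past the limma threshold on each of the 6 arrays (y axis, log2, relative to the control mean of that gene; x axis, gene); lines are group means of 3. In the 3 genes with the largest increases pRJ-Fr.5 replicate 1 (filled circles) lies closest to the controls, as in 76.3% of the 97 genes at least 2-fold higher. In *spp-7* and *spp-13* all 3 treated samples lie together, well below the controls.

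Of the lysozymes, *ilys-3* alone passed the threshold. It encodes an invertebrate-type lysozyme of the pharynx, intestine and coelomocytes that breaks down ingested bacteria. The controls read -0.25, -1.37 and -1.39, and the pRJ-Fr.5 samples read -0.30, 1.71 and 2.44. Control replicate 1 and pRJ-Fr.5 replicate 1 were nearly equal, so that the groups overlapped, while the other 2 treated samples lay far above every control.

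The mean log2 fold change of *ilys-3* was 2.29 ± 0.70 (SE, n = 3 per group), or 4.88-fold. Its 95% confidence interval ran from 0.63 to 3.95, the widest of the members tested, and the limma adjusted p of 0.0494 was just under the threshold. In the fit over all probes its single probe had an adjusted p of 0.0507, and with the slide as a block the gene had 0.0624. The difference was 1.51 on slide 1 and 3.83 on slide 2.

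Its neighbours in the annotation are also *ilys* genes, in the order *ilys-3*, *ilys-2*, *ilys-1*. *ilys-2* read 0.69, 0.53 and 0.79 in controls and 0.65, 0.19 and 0.07 with pRJ-Fr.5. The treated samples ran lower, with an overlap at replicate 1, and the log2 fold change of -0.37 ± 0.16 (SE) did not pass (limma adjusted p = 0.119). *ilys-1* was not well above background on any array. *ilys-4* and *ilys-5* differed between the groups by -0.10 and 0.00 on the log2 scale (limma adjusted p = 0.286 and 0.993). The filter left out a second, dim probe of *ilys-5*, whose group means differed by -0.60.

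None of the 7 *lys* genes tested passed, where 29.0% of all genes did. Their median log2 fold change was -0.19, 6 of the 7 values were negative, and the largest in size was -0.35. *lys-1*, an intestinal lysozyme induced by *Serratia marcescens*, read 4.94, 4.90 and 4.98 in controls and 4.84, 4.74 and 4.35 with pRJ-Fr.5. All treated samples lay below all controls, pRJ-Fr.5 replicate 3 by the most. The log2 fold change was -0.29 ± 0.13 (SE, n = 3 per group, limma adjusted p = 0.128).

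*lys-2* stands next to *lys-1* in the annotation and showed the same layout, with 2.83, 2.68 and 2.72 in controls against 2.56, 2.53 and 2.09. The groups were separate, with a log2 fold change of -0.35 ± 0.13 (SE, limma adjusted p = 0.0880). In both genes the difference was larger on slide 2 than on slide 1, -0.63 against -0.12 for *lys-1* and -0.64 against -0.21 for *lys-2*.

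*lys-7* is known for its role in defence against several pathogens. It read 3.58, 3.41 and 3.53 in controls and 3.63, 3.67 and 3.75 with pRJ-Fr.5, the only *lys* gene tested with a positive value. All treated samples were above all controls by a small margin, 0.18 ± 0.07 (SE) on the log2 scale, which did not pass (limma adjusted p = 0.103).

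*lys-8* read 4.22, 4.17 and 4.27 in controls and 4.19, 4.22 and 4.20 with pRJ-Fr.5. These values overlapped, and the difference of -0.02 had a 95% confidence interval from -0.16 to 0.12 (limma adjusted p = 0.797). The adjoining genes *lys-4*, *lys-5* and *lys-6* had log2 fold changes of -0.19, -0.13 and -0.22 (limma adjusted p = 0.0873, 0.263 and 0.167), and only *lys-4* had separate groups.

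**Figure D3:**
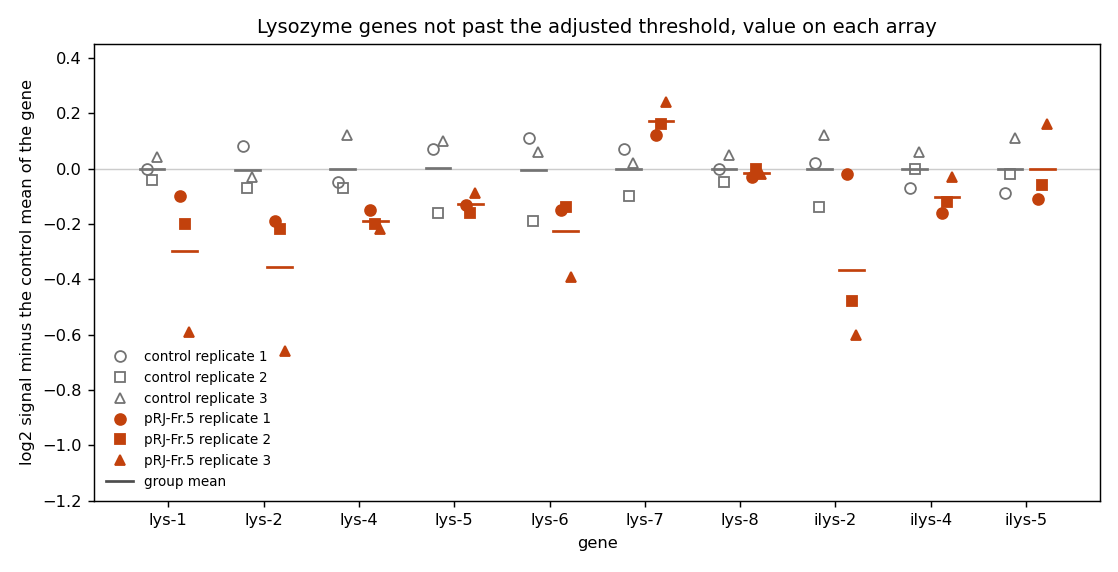
Signal of the 10 lysozyme genes that did not pass the limma threshold on each of the 6 arrays (y axis, log2, relative to the control mean of the gene; x axis, gene); lines are group means of 3. *lys-1*, *lys-2* and *ilys-2* run lowest on pRJ-Fr.5 replicate 3, *lys-7* is higher in all treated samples, and *lys-8* and *ilys-5* overlap.

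Among the saposin-like genes the changes with the smallest adjusted p were decreases. *spp-13* read -1.93, -2.18 and -1.99 in controls and -3.21, -3.09 and -2.91 with pRJ-Fr.5. The groups lay far apart relative to their spread, and no treated sample stood out. The log2 fold change was -1.04 ± 0.10 (SE, n = 3 per group), so that the controls were 2.06-fold higher, with a limma adjusted p of 0.00203.

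*spp-7* behaved likewise. It read -1.24, -1.22 and -1.35 in controls and -2.22, -2.14 and -1.93 with pRJ-Fr.5. The groups were again well apart, by -0.83 ± 0.09 on the log2 scale (SE, n = 3 per group, limma adjusted p = 0.00203). With the slide as a block both genes had a limma adjusted p of 0.00364. The differences on slide 1 and slide 2 were -1.10 and -0.92 for *spp-13* and -0.95 and -0.58 for *spp-7*. In both genes pRJ-Fr.5 replicate 3, not replicate 1, was the treated sample nearest to the controls.

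*spp-23* read 2.26, 2.15 and 2.39 in controls and 2.04, 1.38 and 1.28 with pRJ-Fr.5. Replicate 1 lay just below the lowest control and the other 2 far below. The log2 fold change was -0.70 ± 0.20 (SE, n = 3 per group, limma adjusted p = 0.0390), and 4 of its 5 probes passed on their own, with probe values from -0.89 to -0.63. With the slide as a block the limma adjusted p was 0.0540. *spp-17*, the adjoining gene, differed by -0.10 (limma adjusted p = 0.471).

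*spp-1* encodes caenopore-1, a pore-forming peptide of the intestine. Controls read 0.43, 0.48 and 0.46, very close together, and treated samples read 0.65, 1.00 and 1.23. The groups were separate, with replicate 1 again the lowest treated sample. The increase was 1.42-fold, a log2 fold change of 0.50 ± 0.14 (SE, n = 3 per group, limma adjusted p = 0.0377). Of its 6 probes, 1 was left out because its spot was an outlier on control replicate 3, and the 5 others gave 0.40 to 0.60. Only 1 of these 5 passed on its own (limma adjusted p from 0.0104 to 0.0728).

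*spp-18* read 0.63, 0.53 and 0.64 in controls and 0.73, 1.03 and 1.02 with pRJ-Fr.5. These groups were separate too, by a small margin at pRJ-Fr.5 replicate 1. Its log2 fold change was 0.33 ± 0.09 (SE, n = 3 per group, limma adjusted p = 0.0428). With the slide as a block the limma adjusted p was 0.0360 for *spp-1* and 0.0508 for *spp-18*. The differences on slide 1 and slide 2 were 0.37 and 0.77 for *spp-1*, 0.30 and 0.37 for *spp-18*, and -0.50 and -1.11 for *spp-23*.

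**Figure D4:**
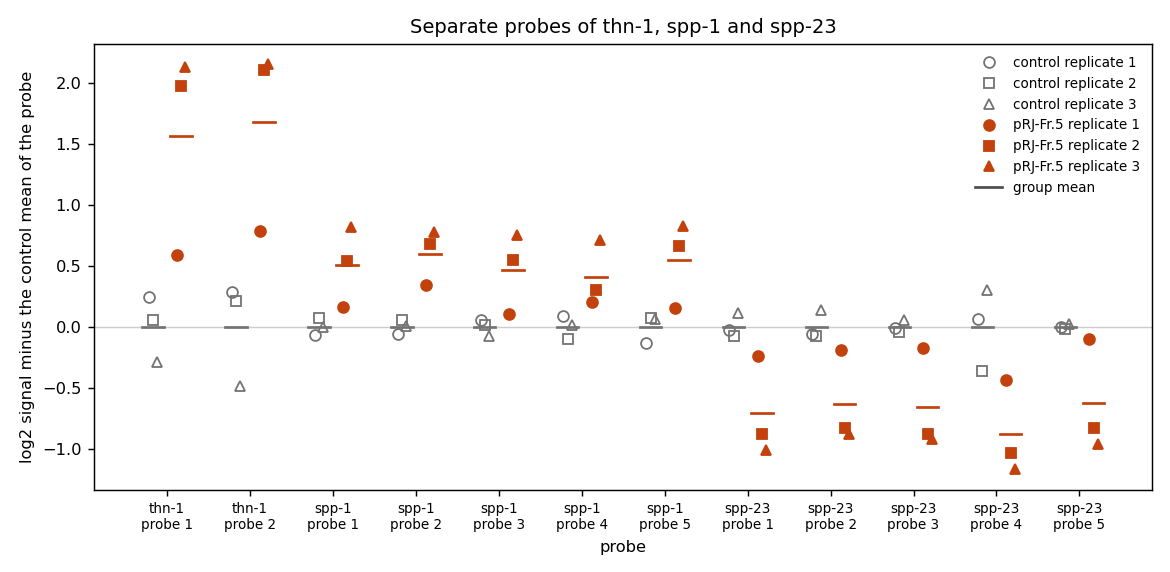
Signal of each kept probe of *thn-1* (2 probes), *spp-1* (5) and *spp-23* (5) on each of the 6 arrays (y axis, log2, relative to the control mean of that probe; x axis, probe); lines are group means of 3. Probes of 1 gene share the order of the treated samples, with pRJ-Fr.5 replicate 1 nearest to the controls in each of the 12 probes.

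The other well-known caenopores did not pass. *spp-5*, which encodes caenopore-5, a peptide that permeabilises bacterial membranes in the gut, read 3.70, 3.83 and 3.86 in controls and 3.66, 3.83 and 3.94 with pRJ-Fr.5. The groups overlapped almost fully, and the difference of 0.01 had a 95% confidence interval from -0.20 to 0.23 (limma adjusted p = 0.918).

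*spp-12*, a caenopore gene expressed in pharyngeal neurons, was dim and variable. It read -4.97, -5.39 and -4.67 in controls and -3.75, -4.72 and -4.97 with pRJ-Fr.5. Treated replicate 1 alone stood above the rest, and the log2 fold change of 0.53 had a 95% confidence interval from -0.26 to 1.33 (limma adjusted p = 0.256). Its difference was 0.95 on slide 1 and -0.30 on slide 2.

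The remaining saposin-like genes tested had log2 fold changes from -0.38 in *spp-4* (limma adjusted p = 0.0864) to 0.52 in *spp-8* (limma adjusted p = 0.109). *spp-8* read 2.41, 2.17 and 2.31 in controls and 2.37, 2.81 and 3.27 with pRJ-Fr.5, so that replicate 1 fell among the controls. *spp-15* was separate and higher by 0.27 (limma adjusted p = 0.0642), and *spp-16* was separate and lower, with -0.21 (limma adjusted p = 0.0875). *spp-3* and *spp-4*, which stand in the same row of genes as *spp-5*, differed by -0.09 and -0.38 (limma adjusted p = 0.301 and 0.0864). *spp-10* and *spp-25*, with 4 and 5 kept probes, were separate too, with 0.10 and -0.13 (limma adjusted p = 0.253 and 0.177), and no probe of either passed. Values for *spp-14*, *spp-24* and *spp-31* were 0.01, -0.13 and -0.11 (limma adjusted p = 0.960, 0.203 and 0.622), and of these only *spp-24* was separate.

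For the *abf* genes, *abf-1*, *abf-5* and *abf-6* had log2 fold changes of 0.03, 0.20 and 0.21 (limma adjusted p = 0.875, 0.227 and 0.0875). *abf-6* was separate and higher, with 0.29, 0.13 and 0.16 in controls and 0.30, 0.50 and 0.40 with pRJ-Fr.5. *abf-2*, the best studied of the family for its antibacterial activity, was not well above background on any array.

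The filter on dim probes and on outlier spots left out 22 members. Of these, 6 were never well above background, *abf-2*, *ilys-1*, *ilys-6*, *spp-11*, *thn-6* and *thn-7*. A further 10 were well above it on some arrays but not on all of either group, *abf-3*, *abf-4*, *lys-9*, *spp-9*, *spp-19*, *spp-21*, *spp-22*, *thn-3*, *thn-4* and *thn-5*.

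Besides *thn-8*, 5 of the members left out were well above background on all 3 treated arrays and on 2 of 3 control arrays. *lys-10* read -6.97, -6.63 and -7.60 in controls and -6.41, -6.04 and -5.76 with pRJ-Fr.5, and its groups were separate. *spp-6* read -6.51, -6.82 and -7.38 in controls and -6.79, -5.88 and -5.21 with pRJ-Fr.5, which overlap. The means differed by 0.99 for *lys-10* and by 0.95 for *spp-6* on the log2 scale. With all arrays kept and dim probes filtered, they could enter a test only through the treated group, like *thn-8*, *lys-3* and *spp-20*. That favours a positive difference, so no p-value is given for them. *lys-10* and *spp-6* are dim, and the controls missing detection are in each case replicate 3, the array with the noisiest background.

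*lys-3* and *spp-20* overlapped as well. *lys-3* read -4.48, -5.17 and -5.85 in controls against -5.18, -4.90 and -6.35, a difference of -0.31. *spp-20* read -4.69, -5.39 and -5.98 against -4.95, -4.99 and -4.41, a difference of 0.57. *spp-2* was bright but its spot was an outlier on control replicate 3. It read 1.46 and 0.83 in the other controls and 1.20, 1.65 and 1.56 with pRJ-Fr.5, which overlap.

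The treated samples were uneven. pRJ-Fr.5 replicate 1 was the treated sample nearest to the control mean in 19 of the 34 members tested, as it was in 49.1% of all genes tested and in 69.0% of all genes called. Among the 97 genes at least 2-fold higher, which include *ilys-3*, *thn-1* and *thn-2*, replicate 1 was nearest in 76.3%. When it was left out, 12 members passed, the same 8 with *ilys-2*, *spp-4*, *spp-8* and *spp-15*, where 33.7% of all genes passed. When any of the 5 other arrays was left out, *spp-13* and *spp-7* alone passed, and the share over all genes was 17.1% to 23.6%. Each of these fits has fewer arrays, and why the 6 other calls were lost in some of them was not tested. Without control replicate 3 the limma adjusted p was 0.141 for *ilys-3*, 0.0886 for *thn-1* and 0.0929 for *thn-2*, and the log2 fold changes were 2.09, 1.43 and 1.25. Without pRJ-Fr.5 replicate 1 they were 3.08, 2.09 and 1.77, with limma adjusted p = 0.00249, 0.00189 and 0.00189. An exact permutation test of 3 against 3 samples cannot give a two-sided p below 0.10.

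**Figure D5:**
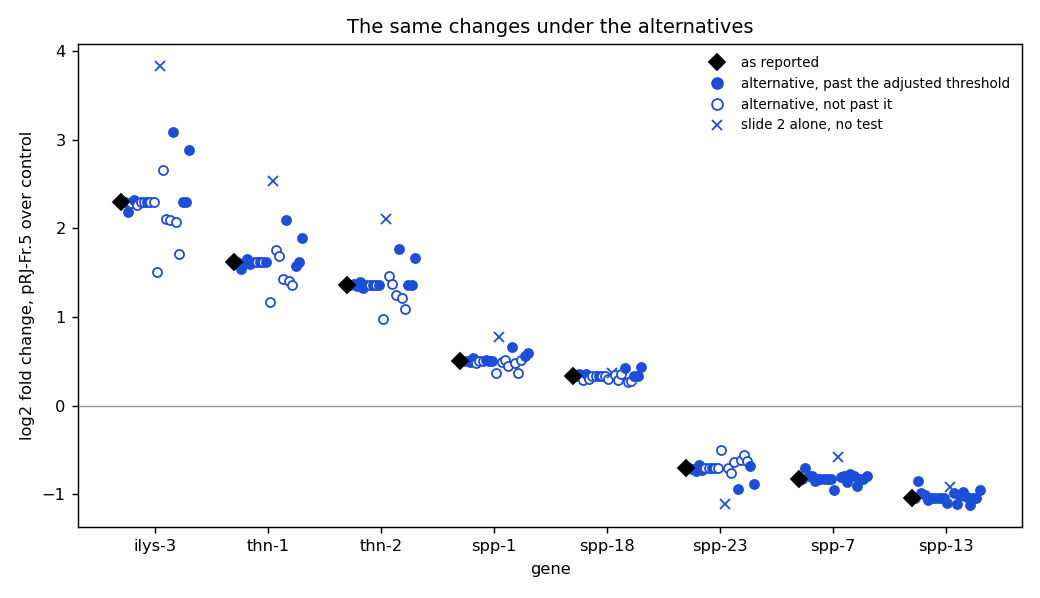
Log2 fold change (y axis, pRJ-Fr.5 over control) of the 8 member genes past the limma threshold (x axis, gene) as reported (diamonds) and under other processing choices (circles, filled where past the adjusted threshold; crosses, slide 2 alone, with no test). No gene changed direction, and *spp-13* and *spp-7* stayed past the threshold in each of the 20 alternatives with a test, against 11 for *thn-1* and *thn-2* and 7 for *ilys-3*.

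Tissue markers were read beside the members. For comparison, 9.88% of all genes tested rose and 19.1% fell. Of 10 intestinal genes, none rose and 3 fell, the peptide transporter gene *pept-1* (-0.52), the brush-border actin gene *act-5* (-0.42) and the intermediate filament gene *ifb-2* (-0.22), with limma adjusted p = 0.0265, 0.0315 and 0.0453. The intestinal GATA factors *elt-2* and *elt-7* differed by -0.05 and 0.24 (limma adjusted p = 0.591 and 0.0515). The 10 had a median log2 fold change of 0.00, and their summed signal was 6.75 to 6.80 on the log2 scale in controls and 6.69 to 6.77 with pRJ-Fr.5. Of 3 coelomocyte markers, *cup-4* (-0.22) and *lgc-26* (-0.30) fell (limma adjusted p = 0.0423 and 0.0474), while *unc-122* differed by 0.03 (limma adjusted p = 0.911). Their summed signal was 0.35 to 0.40 in controls and 0.12 to 0.26 with pRJ-Fr.5. Of 7 pharyngeal gland genes, *phat-1*, *phat-2* and *phat-4* fell. The 4 others had positive values that did not pass, *phat-3* (0.12), *phat-6* (0.12), *hlh-6* (0.47) and *phat-5* (1.18). The median of the 7 was 0.12, and the summed signal was 3.88 to 3.97 in controls and 3.60 to 3.70 with pRJ-Fr.5. No gene of the lists for pharyngeal and body wall muscle, neurons, epidermis, germ line or excretory cell passed, nor any of 4 yolk genes, which are switched on in the adult intestine. Each summed signal adds values on the linear scale, so the brightest probes of a list weigh most in it. The part of these tissues in the changes of the members was not tested.

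Known regulators of these effectors were read in the same way. The list held 28 genes, from the p38, TGF-beta and insulin/IGF-1 pathways, with the receptor gene *fshr-1* and other transcriptional regulators. Of the 28, 3 rose and none fell, with a median log2 fold change of 0.12, where 9.88% of all genes rose and 19.1% fell. Those that rose were the insulin receptor gene *daf-2* (0.32), the kinase gene *pdk-1* (0.33) and the TGF-beta receptor gene *daf-4* (0.24), with limma adjusted p = 0.0210, 0.00585 and 0.0209. The p38 gene *pmk-1* differed by 0.15 and the FOXO gene *daf-16* by 0.09 (limma adjusted p = 0.140 and 0.270). These are transcript levels and do not show the activity of the pathways.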

How the data were processed

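RNA of 3 control and 3 pRJ-Fr.5 samples was labelled with 1 dye. What the authors deposited for an array is the processed intensity per spot with its quality flags (Agilent Feature Extraction, version 10.7.1.1). Background had been subtracted, but arrays had not been scaled to each other. A second deposited table gives linear ratios; checked against the intensities, each is the signal over its array's 75th percentile. Values were log2 of the intensity minus the 75th percentile of the array over all non-control probes. Probes (43603; 50 spotted repeatedly were averaged) were kept when all 6 arrays showed them positive, significant, well above background and free of outlier flags (27514). Kept probes of a gene were averaged. RefSeq's WBcel235 annotation gave symbols to 80.0% of the probes (34865). The array was annotated on another build, so no coordinates are given, and no probe or gene sequences were used.

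A limma model (version 3.58.1, R 4.3.3) without a block compared the groups over 16047 genes, after the fit had been tested on simulated data. Per-array values are given for every member past the threshold, every *thn* gene tested, members left out by the filter but detected throughout 1 group, and *lys-1*, *lys-2*, *lys-7*, *lys-8*, *ilys-3*, *spp-1*, *spp-5* and *spp-12*; *ilys-2*, *spp-8* and *abf-6* were added after their values were seen. The members and lists were chosen with earlier results of these data known. The labels do not say whether the replicate numbers in the titles pair the samples. The deviations of same-numbered samples correlated at -0.24, 0.05 and -0.03, which shows no sign of pairing but cannot exclude it. Alternatives were the methods' t-test (with Benjamini-Hochberg adjustment and without the study's fold-change cut), normexp (offset 50), and quantile, median and kept-probe scaling. Further ones were other filters, the series table, the highest-signal probe, replicate and slide blocks, each slide, and each array left out. The median over kept probes, and control replicate 3 and pRJ-Fr.5 replicate 1 left out together, were chosen after seeing the data. With 3 arrays a group, their number limits the precision.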

Additional observations from a re-analysis of the deposited data

Results flagged for a closer look

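*lys-10* was outside the genes tested, because its probe was not well above background on control replicate 3. It was detected on all 3 pRJ-Fr.5 arrays and read higher there than on every control array, by 0.99 on the log2 scale. A test that asks detection in 1 group only admits it through the group where it is high, which favours an increase, and it did not pass there. It did not pass without control replicate 3 or with no filter either. It passed only with control replicate 3 and pRJ-Fr.5 replicate 1 left out together, a choice made after seeing the data. The increase is therefore given as a value without a p-value.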

How the results depend on the processing

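Of the 8 members called, *spp-13* and *spp-7* were past the threshold in all 20 alternatives with a test. *thn-1* and *thn-2* were past it in 11, *spp-1* in 9, *spp-23* in 8, and *ilys-3* and *spp-18* in 7, and none of the 8 changed direction. The count of members called was 2 with the methods' t-test (21.1% of all genes), here with Benjamini-Hochberg adjustment. The study describes no such adjustment and used a fold-change cut, so this is not its own selection. The count was 4 of 39 with detection in 1 group (22.8%), 2 of 55 with no filter (10.8%), 5 with the slide as a block (27.3%) and 2 within slide 1 (20.7%). With each array left out it lay between 2 and 12, and with control replicate 3 and pRJ-Fr.5 replicate 1 both left out it was 13 of 40 (25.5%). The replicate number as a block gave 3 members (19.9% of all genes), *spp-1*, *spp-13* and *spp-7*. Whether the numbers pair the samples is not stated in the labels. Over all genes, 4650 were called, 2657 with no filter and 2741 to 5404 with each array left out. The 16 members with an unadjusted p under 0.05 became 10 with the methods' t-test, 7 within slide 1 and 8 to 19 with each array left out.

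The lysozyme median was -0.19 on slide 2 and -0.21 to -0.08 with each array left out. The saposin-like median was -0.01 with no filter, -0.11 to 0.05 with each array left out, and 0.05 with both arrays left out. The thaumatin-like median was 0.11 over 8 genes with no filter and 2.32 on slide 2. In each of these the cause was not tested, except that no filter brings in more genes.

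Differences near 0 changed sign under some settings. With single arrays left out, *abf-1* ran from -0.07 to 0.10, *ilys-5* from -0.08 to 0.05, *lys-8* from -0.05 to 0.00, *spp-14* from -0.06 to 0.09, *spp-31* from -0.26 to 0.07 and *spp-5* from -0.05 to 0.09. Without both of those arrays these 6 were -0.04, 0.11, 0.01, 0.04, 0.05 and 0.12. *ilys-5* was 0.04 with quantile scaling, 0.03 with median scaling and 0.00 in the series table. With no filter, which brings in its second, dim probe, *ilys-5* was -0.30. *lys-8* was 0.03 with quantile scaling, and 0.01 with median scaling and within slide 1. *spp-14* was -0.03 with normexp and quantile, -0.02 with kept-probe scaling and -0.01 within slide 1. *spp-17* was 0.03 within slide 1, and *spp-5* was -0.01 with kept-probe scaling and -0.02 within slide 1. Over the 34 members and their alternatives, 574 of 680 values with a test kept direction and side of the threshold, 67 lost the threshold and 10 gained it. Background on control replicate 3 limits the dim members, and 3 samples a group limit all of them.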

Other observations

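Pharyngeal gland genes, which encode small secreted peptides (*phat*) and the gland factor HLH-6, did not move together. *phat-1* read -0.22, -0.24 and -0.18 in controls and -0.92, -0.89 and -1.15 in treated samples, which gives -0.77 ± 0.08 on the log2 scale (SE, n = 3 per group, limma adjusted p = 0.00203). *phat-2* and *phat-4* fell by 0.56 each on the log2 scale (limma adjusted p = 0.00203 and 0.00539). *phat-5* read -3.44, -4.28 and -4.26 in controls and -3.78, -2.66 and -1.98 with pRJ-Fr.5. Its groups overlapped at pRJ-Fr.5 replicate 1, as in *ilys-3*, and its log2 fold change of 1.18 did not pass (limma adjusted p = 0.0964).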
